A study of Mus musculus with 6 samples.

Results

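GIMAP genes encode the GTPases of immunity-associated proteins, a family of membrane-linked GTP-binding proteins. The 8 genes described here (Gimap1, Gimap3, Gimap4, Gimap5, Gimap6, Gimap7, Gimap8 and Gimap9) were taken by name from a table of 13935 genes. All 8 were listed and all 8 passed the filter on low counts. RNA had been sequenced from mouse bone marrow cells that the series calls long-term hematopoietic stem cells (LT-HSCs), a rare population that sustains blood formation. The sample labels call them stem and progenitor cells. By the labels, 3 libraries came from wild-type mice (replicates 1 to 3). The other 3 (replicates 4 to 6) came from Mel18 knockout mice, in which deletion was conditional and aimed at hematopoietic cells. Mel18, the product of Pcgf2, is a subunit of polycomb repressive complex 1, which holds genes silent through chromatin. The deposited table names its contrast Cre+ against Cre-, so an effect of the Cre recombinase and of the deletion cannot be told apart. The sources used here do not give the promoter driving Cre, the exons removed, the sort gate, age, sex or any pooling of mice. Adjusted p-values therefore measure the spread between these libraries.

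GIMAP proteins carry a GTP-binding domain of the AIG1 type and are best known from lymphocytes, where several of them sit on intracellular membranes and govern survival. Loss of Gimap5 in mice depletes T cells and other lymphocytes and also reduces hematopoietic stem cells, a setting in which Gimap5 has been linked to the survival protein Mcl1 and its partner chaperone Hspa8. Gimap1 is needed for mature B and T cells in mice. Gimap6 binds Gabarapl2, a protein of autophagy.

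Depth and identity of the libraries come first. Total counts lay between 26469336 and 37180701 per library, and 3 counts corresponded to 0.0782 to 0.115 CPM (counts relative to the TMM-scaled library size). Such limits cover counting error only. Wild-type replicates 1 to 3 held 43, 68 and 54 counts of Pcgf2, and the libraries labelled knockout held 72, 72 and 107. Every knockout count was above every wild-type count. Scaled to library size, the groups overlapped (1.93 ± 0.60 and 2.37 ± 0.858 CPM, SD, n = 3 each), with a log2 fold change of 0.30 (SE 1.14). Whole-gene counts thus showed no loss of Pcgf2, and "knockout library" below means a library so labelled. Knockout replicate 6 stood apart, with a score of 167.4 on principal component 1 (log2 CPM) against -71.6 to 7.7 for the other 5 libraries. The sample number in its title also lies outside the consecutive run of the other 5. The labels do not say what these numbers stand for. On component 2 (25.2% of variance) it scored 48.5, within the wild-type range of 29.4 to 63.6. Knockout replicates 4 and 5 scored -102.8 and -75 there. The 10 LT-HSC markers were all listed, and their summed level was 778 to 1470.1 CPM in the wild-type and 1804 to 2564 CPM in the knockout libraries. Procr, the surface receptor used to isolate stem cells, passed the test as higher (log2 fold change 2.18, SE 0.21, adjusted p = 0.0232). Of these markers, 1 (Slamf1 in wild-type replicate 1) was at 0 counts in a library. The 5 markers of multipotent progenitors summed to 5094 to 12072 CPM in the wild-type and 318 to 1249 CPM in the knockout libraries. Cd48, a progenitor surface marker, passed as lower (-4.36, SE 0.53, adjusted p = 0.042). Bulk libraries cannot tell fewer cells of a type from less RNA per cell.

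The members lie side by side on mouse chromosome 6 (mm10), over 123.6 kb from 48647234 to 48770851, in the order Gimap8, Gimap9, Gimap4, Gimap6, Gimap7, Gimap1, Gimap5 and Gimap3. Gimap6 and Gimap3 are on the minus strand and the other 6 on the plus strand. Promoter windows of 250 bases ending just before the annotated start were read from RefSeq (GRCm38.p6), and all 8 members matched, with 9 windows because Gimap8 has a pair of starts that overlap in sequence. They were poor in CpG: 8 of the windows held 1 to 3 CpG dinucleotides and that of Gimap9 held 8, where the median over 32851 mouse promoter windows was 6. The letters AGGAAG, read on both strands, were present in 7 of the 9 windows, belonging to 7 of the 8 members, and in 29.5% of all windows of this length. They are a form of the sites that ETS-family transcription factors can bind, which share the shorter core GGAA. GGAA with other flanking letters was not counted. Among the other letters searched, TGTGGT (a RUNX core) was found in 3 members (Gimap1, Gimap4 and Gimap7) and 14.0% of all windows, AGATAA (bound by Gata2 and its relatives) in 0 members and 9.99% of windows, and TATAAA in 1 member (Gimap6) and 12.4% of windows. None of the 4 strings contains another, and they were chosen after the promoter sequences had been seen. A match is a description of letters, not a bound site.

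The windows shown are those of the 4 members whose libraries separated by genotype label (Gimap1, Gimap5, Gimap6 and Gimap8) and of Gimap7, the member fitted lowest in the knockout libraries. They are chr6:48738797-48739046 on the plus strand for Gimap1, chr6:48745947-48746196 on the plus strand for Gimap5, chr6:48708245-48708494 on the minus strand for Gimap6, chr6:48646984-48647233 on the plus strand for Gimap8 and chr6:48718371-48718620 on the plus strand for Gimap7. Each is written 5′ to 3′ along the gene's own strand, with AGGAAG or its reverse complement in capitals. The windows of Gimap6 and of the upstream start of Gimap8 have no capitals, while the downstream start of Gimap8, not printed, has 1 match. Capitals do not mark GGAA with other flanking letters, such as cggaag in the windows of Gimap6 and Gimap1.
Gimap1: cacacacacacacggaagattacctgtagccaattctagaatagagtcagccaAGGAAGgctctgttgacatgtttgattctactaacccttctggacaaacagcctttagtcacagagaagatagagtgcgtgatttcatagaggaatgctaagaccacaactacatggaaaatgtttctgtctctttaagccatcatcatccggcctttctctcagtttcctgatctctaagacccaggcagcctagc
Gimap5: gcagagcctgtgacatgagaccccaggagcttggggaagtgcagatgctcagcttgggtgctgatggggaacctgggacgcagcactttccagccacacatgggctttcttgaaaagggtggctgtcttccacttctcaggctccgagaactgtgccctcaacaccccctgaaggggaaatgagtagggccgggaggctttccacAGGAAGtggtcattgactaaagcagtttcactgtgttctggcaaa
Gimap6: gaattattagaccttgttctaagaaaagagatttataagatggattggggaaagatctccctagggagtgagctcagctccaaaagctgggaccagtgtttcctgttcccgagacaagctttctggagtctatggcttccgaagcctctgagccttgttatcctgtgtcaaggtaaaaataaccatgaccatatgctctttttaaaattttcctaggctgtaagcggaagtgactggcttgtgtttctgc
Gimap8: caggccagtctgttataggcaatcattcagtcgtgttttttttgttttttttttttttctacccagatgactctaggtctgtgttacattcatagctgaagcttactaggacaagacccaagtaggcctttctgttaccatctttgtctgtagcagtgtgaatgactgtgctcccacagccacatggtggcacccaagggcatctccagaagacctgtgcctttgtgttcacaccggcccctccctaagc
Gimap7: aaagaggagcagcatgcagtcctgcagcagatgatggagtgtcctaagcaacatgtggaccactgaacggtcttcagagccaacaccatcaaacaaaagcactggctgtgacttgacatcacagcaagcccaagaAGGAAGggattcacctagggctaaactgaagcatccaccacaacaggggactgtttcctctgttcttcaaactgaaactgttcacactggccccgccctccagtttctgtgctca

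In the libraries labelled knockout, Gimap1, Gimap5, Gimap6 and Gimap8 each lay above every wild-type library, while Gimap3, Gimap4, Gimap7 and Gimap9 overlapped between the groups. No member passed the test over all genes. The 4 separated members had log2 fold changes between 0.69 and 2.50, and the members together averaged 592 ± 131 CPM in the wild-type and 1083 ± 220 CPM in the knockout libraries (summed CPM, SD, n = 3 each). By comparison, 10.1% of the 12603 genes tested were higher and 11.3% lower without overlap. Of the 8 members 6 were fitted higher (49.6% of all genes). Their median log2 fold change was 0.60, against -0.01 over all genes. Unless another test is named, values are from the quasi-likelihood test of edgeR, adjusted by Benjamini-Hochberg over all tested genes, where 18 genes (0.143%) passed at 0.05. At an unadjusted p below 0.05 there were 4 members, all of them higher, against 5.36% of all genes that were higher at that level.

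**Figure D1:**
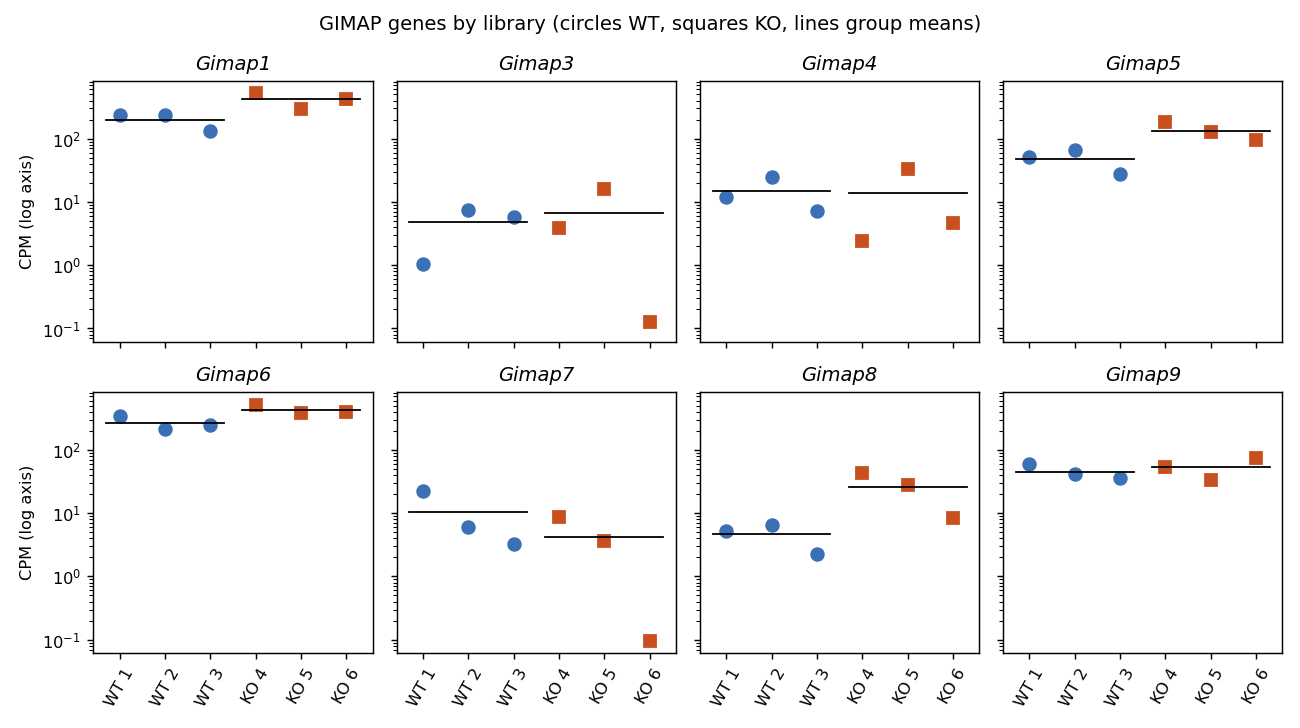
Level of each GIMAP gene in CPM on a log axis, with wild-type (WT) replicates as circles, knockout (KO) replicates as squares and group means as lines (n = 3 each). The knockout points lie above all wild-type points for Gimap1, Gimap5, Gimap6 and Gimap8, and knockout replicate 6 lies at 0.126 CPM for Gimap3 and 0.0943 CPM for Gimap7.

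Gimap5 had the smallest p of the family. It was read at 50.8, 66.2 and 27.7 CPM in wild-type replicates 1 to 3 and at 182, 126 and 93.6 CPM in knockout replicates 4 to 6. The lowest knockout library, replicate 6, was above the highest wild-type library, replicate 2. The group means were 48.2 ± 19.4 and 134 ± 44.8 CPM (SD, n = 3 each), a log2 fold change of 1.47 (SE 0.38) with an adjusted p = 0.187. Gimap5 passed in 3 alternative tests, with an adjusted p = 0.0117 in DESeq2 (which called 4.4% of genes), 0.0156 in edgeR's likelihood ratio test (3.44%) and 0.0177 in edgeR's exact test (3.21%). Over all 18 alternatives, the 6 with a library left out included, its adjusted p ran from 0.0117 to 0.473 and its log2 fold change from 1.18 to 1.77.

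Gimap8, a large member of the family with repeated GTP-binding domains, had the largest fitted fold change but a low level. It was read at 5.14, 6.48 and 2.24 CPM in the wild-type libraries and at 42.8, 27.5 and 8.24 CPM in the knockout libraries. Knockout replicates 4 and 5 were far above the wild-type libraries, and replicate 6 was just above them. The group means were 4.62 ± 2.17 and 26.2 ± 17.3 CPM (SD, n = 3 each), a log2 fold change of 2.50 (SE 0.71) with an adjusted p = 0.228. The adjusted p was 0.0196 in DESeq2 and 0.0447 in the likelihood ratio test, and reached 0.529 among the alternatives.

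Gimap1, which T and B cells of mice need to survive, was read at 233, 233 and 131 CPM in the wild-type libraries and at 529, 295 and 427 CPM in the knockout libraries. Wild-type replicate 3 was the lowest and knockout replicate 4 the highest, and the groups did not overlap. The group means were 199 ± 58.7 and 417 ± 117 CPM (SD, n = 3 each), a log2 fold change of 1.07 (SE 0.31) with an adjusted p = 0.233. In DESeq2 the adjusted p was 0.029, and it reached 0.528 among the alternatives. Exons of Gimap1 overlap the same-strand gene Gm28053 over 13.2% and the opposite-strand gene Gimap1os over 13.8% of their bases in GENCODE M21. Over all annotated transcripts of Gimap1, 35.5% of the stretches of 50 bases (1107 of 3116) recur, on either strand, in transcripts of other genes, most of them in Gimap1os. Neither gene was analysed here, and the library kit does not mark strand, so the assignment of reads to Gimap1 is uncertain there. Gm28053 also overlaps 7.87% of the exon bases of Gimap5 and 6.38% of those of Gimap7.

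Gimap6, the partner of Gabarapl2, was the steadiest of the 4. It was read at 338, 211 and 246 CPM in the wild-type libraries and at 509, 380.5 and 394 CPM in the knockout libraries. The gap between the groups, from wild-type replicate 1 to knockout replicate 5, was small beside the spread within them. The group means were 265 ± 65.7 and 428 ± 70.9 CPM (SD, n = 3 each), a log2 fold change of 0.69 (SE 0.25) with an adjusted p = 0.325. Its adjusted p was between 0.122 and 0.641 over the 18 alternatives, so Gimap6 passed in none of them.

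**Figure D2:**
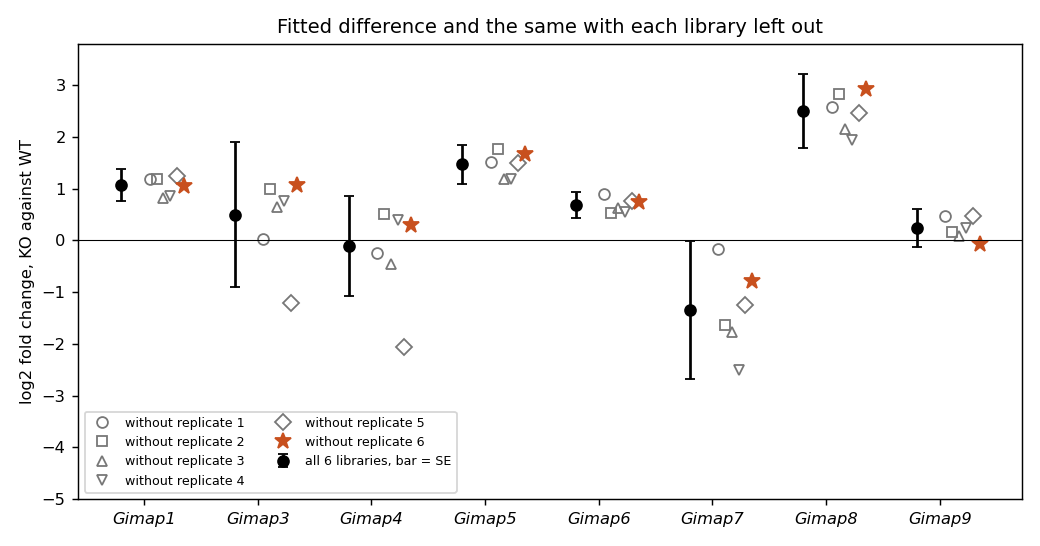
Log2 fold change of the libraries labelled knockout against wild type from edgeR's quasi-likelihood fit, with all 6 libraries (black points, bars are standard errors) and with each library left out in turn (open symbols, filled star without replicate 6). Gimap1, Gimap5, Gimap6 and Gimap8 stay above 0 throughout, Gimap7 stays below 0, and Gimap3, Gimap4 and Gimap9 change sign with a library left out.

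Gimap7 was low and uneven. In humans its counterpart speeds GTP hydrolysis by another GIMAP protein. It was read at 22.5, 6.02 and 3.31 CPM in the wild-type libraries and at 8.76, 3.60 and 0.0943 CPM in the knockout libraries. Wild-type replicate 1 was the highest, and knockout replicate 6 held 3 counts. Its log2 fold change of -1.35 (SE 1.33) had an adjusted p = 0.752, and was -0.17 without wild-type replicate 1. Wild-type replicate 1 also held the largest summed level of the 13 T-cell markers (210.2 CPM, against 93.5 and 123 CPM in the other wild-type libraries). Of that sum Lck made up 116 CPM. Il7r (18.4 CPM), Tcf7 (15.2 CPM), Zap70 (4.15 CPM), Cd8a, Cd3e, Cd2 and Lef1 were also highest in replicate 1 among the wild-type libraries. Cd4, Bcl11b and Lat were highest in replicate 2, and Cd3d and Cd3g in replicate 3. The larger sum was noticed after the values were seen, and its part in the level of Gimap7 was not tested.

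Gimap4, which in mouse T cells affects the pace of cell death, was read at 11.8, 25.1 and 7.16 CPM in the wild-type libraries and at 2.45, 33.7 and 4.68 CPM in the knockout libraries. Wild-type replicate 2 and knockout replicate 5 were the highest of their groups. Its log2 fold change of -0.11 (SE 0.97) had an adjusted p = 0.983. The value was -2.07 without knockout replicate 5 and 0.52 without wild-type replicate 2, so its direction depended on single libraries.

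Gimap3, which in mouse leukocytes influences the segregation of mitochondrial DNA, was read at 1.06, 7.44 and 5.71 CPM in the wild-type libraries and at 3.94, 16.1 and 0.126 CPM in the knockout libraries. Knockout replicate 5 held 616 counts and knockout replicate 6 held 4, and the groups overlapped fully. Its log2 fold change of 0.50 (SE 1.41) had an adjusted p = 0.935. The value was -1.21 without knockout replicate 5. Gimap3 and Gimap5 share 190 stretches of 50 bases between their annotated transcripts, 7.52% of those of Gimap3 and 4.53% of those of Gimap5. The assignment of reads from these stretches between the 2 genes is uncertain.

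Gimap9 was at 58.97, 41.01 and 36.5 CPM in the wild-type libraries and at 53.9, 33.6 and 73.6 CPM in the knockout libraries. The ranges overlapped, with the lowest and the highest value both among the knockout libraries. Its log2 fold change of 0.24 (SE 0.37) had an adjusted p = 0.862.

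To compare the genes with each other, counts were divided by exon length (CPM per kilobase of exon). In the wild-type libraries the order of mean levels was Gimap6 (164 ± 40.7), Gimap1 (132 ± 39.03), Gimap9 (32.9 ± 8.59), Gimap5 (24.8 ± 9.96), Gimap7 (8.35 ± 8.16), Gimap4 (8.10 ± 5.13), Gimap3 (2.21 ± 1.54) and Gimap8 (1.25 ± 0.586), each in CPM per kilobase with SD over 3 libraries. Neighbours in this order overlapped in their library values, except for Gimap1 against Gimap9 and Gimap4 against Gimap3, which did not. Gimap6 and Gimap1 stood at the 95.5 and 94.1 percentile of all tested genes per exon length, and Gimap8 at the 15.1 percentile.

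In the knockout libraries the order of mean levels per kilobase began with Gimap1 (277 ± 77.9) and Gimap6 (265 ± 43.97). Gimap5 (68.9 ± 23.04) came before Gimap9 (38.8 ± 14.5), followed by Gimap4 (7.53 ± 9.65), Gimap8 (7.08 ± 4.68), Gimap7 (3.27 ± 3.44) and Gimap3 (3.13 ± 3.88). Neighbours overlapped in their library values except for Gimap6 against Gimap5 and Gimap9 against Gimap4. Gimap5 stood at the 67.5 percentile of tested genes in the wild-type and the 86.4 percentile in the knockout libraries, and Gimap8 at the 15.1 and the 42.3 percentile. Gimap1, Gimap5 and Gimap6 together made up 85.0% to 87.5% of the family's summed level per kilobase in the wild-type and 89.1% to 92.6% in the knockout libraries.

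**Figure D3:**
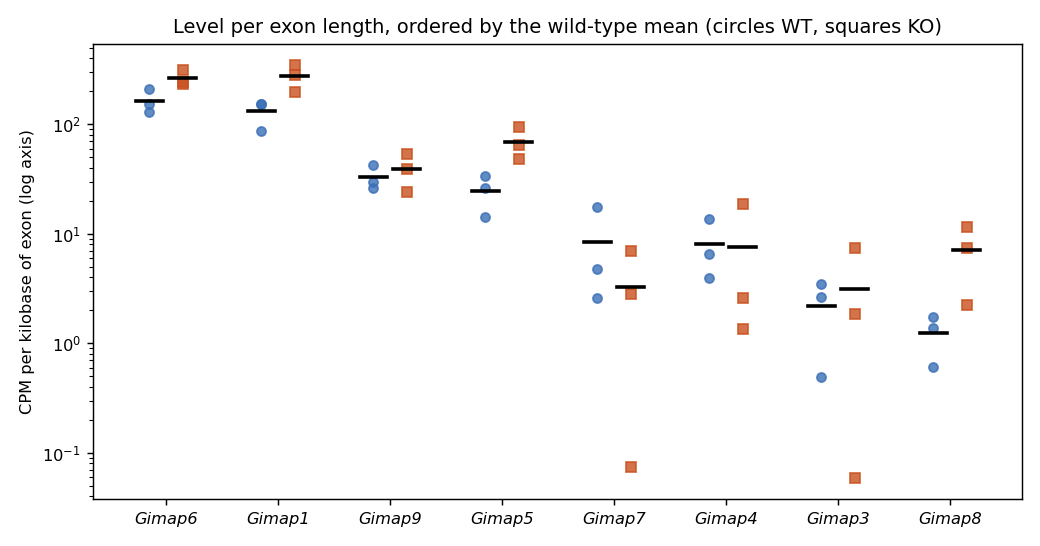
Level per exon length of each member (CPM per kilobase of exon, log axis), ordered by the wild-type mean, with a point per library (circles wild type, squares knockout) and bars at group means. Gimap6 and Gimap1 lie between 87.2 and 351 over all 6 libraries and are the 2 highest members within each library. Gimap5 reaches 93.7 in knockout replicate 4, while Gimap3 and Gimap7 reach values below 0.1 in knockout replicate 6.

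The members did not keep fixed proportions. The ratio of Gimap1 to Gimap6 per kilobase was 0.738, 1.18 and 0.571 in the wild-type libraries and 1.11, 0.83 and 1.16 in the knockout libraries, which overlapped. The ratio of Gimap5 to Gimap1 per kilobase was 0.169, 0.22 and 0.164 in the wild-type libraries and 0.267, 0.331 and 0.17 in the knockout libraries, where replicate 6 fell within the wild-type range. The steady members varied within a genotype label by no more than 2.39-fold between the highest and lowest library (Gimap1, Gimap5, Gimap6 and Gimap9). Among the 3 knockout libraries Gimap3 varied 128-fold, Gimap7 92.9-fold, Gimap4 13.8-fold and Gimap8 5.20-fold. Without replicate 6, the remaining pair of knockout libraries differed 4.08-fold for Gimap3, 2.43-fold for Gimap7, 13.8-fold for Gimap4 and 1.55-fold for Gimap8.

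Position in the cluster did not set the separated members apart as a block. Gimap1 and Gimap5 are neighbours, 2.4 kb apart, while Gimap6 lies between Gimap4 and Gimap7, whose groups overlapped. Gimap8 opens the cluster, and its only neighbour among the members, Gimap9, overlapped as well. Beyond the cluster, 15 other genes of the table lay within 500 kb, of which 13 were tested, 0 passed and 10 were fitted higher (median 0.31 on the log2 scale). Tmem176b, the nearest on the far side at 63.0 kb, encodes a membrane protein of immune cells. It was read at 573, 599.6 and 459.9 CPM in the wild-type and at 869, 737 and 936 CPM in the knockout libraries, without overlap (log2 fold change 0.64, SE 0.22, adjusted p = 0.288). AI854703, the nearest on the near side at 13.5 kb, overlapped between the groups (0.65, SE 0.60), as did Zfp467, a zinc finger gene with a log2 fold change of 1.26 (SE 0.46, adjusted p = 0.326). Tmem176a and Malsu1 were also higher without overlap (0.65, SE 0.25, and 0.64, SE 0.37), and Tra2a was lower without overlap (-0.60, SE 0.41), all 3 named after their values were seen.

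**Figure D4:**
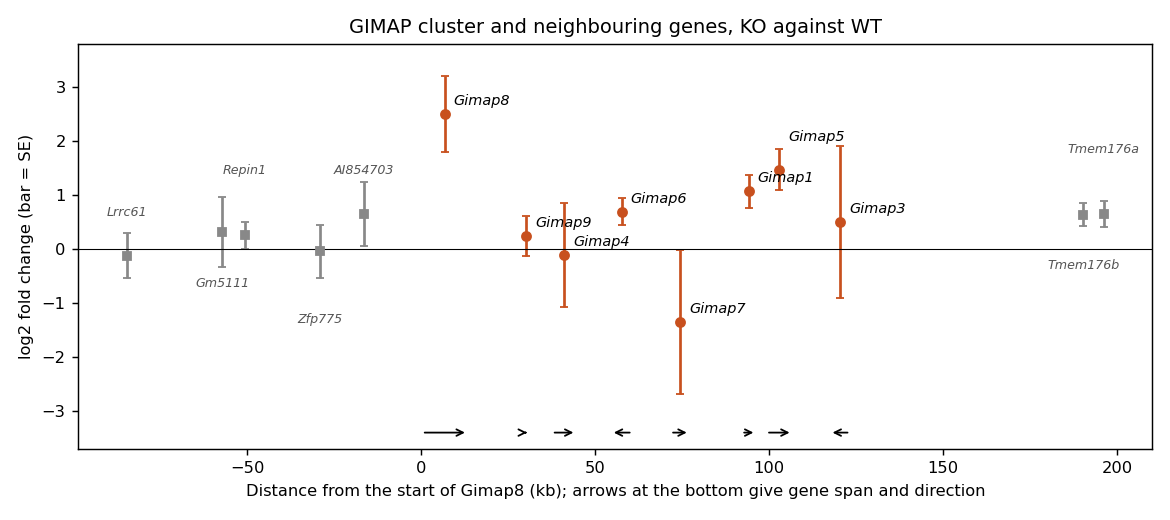
Log2 fold change (knockout against wild type, bars are standard errors) by distance in kb from the start of Gimap8, for the 8 members (round points) and tested neighbours within 100 kb of the cluster (grey squares), with arrows for the span and direction of each member. The highest members, Gimap8 (2.50), Gimap5 (1.47) and Gimap1 (1.07), start at 0, 99.0 and 91.8 kb, with Gimap7 (-1.35) between Gimap8 and the other two, and Gimap3 (0.50) ends the cluster at 123.6 kb.

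The proteins that GIMAP members are reported to work with were taken as a list of 10 genes, all tested, of which 0 passed and 5 were fitted higher (median 0.01 on the log2 scale). Mcl1, the survival protein linked to Gimap5, was read at 351, 256 and 609 CPM in the wild-type and at 240.5, 386 and 193 CPM in the knockout libraries, which overlapped (-0.57, SE 0.38, adjusted p = 0.601). Hspa8, the chaperone of that pair, averaged 4308 ± 1526 and 2962 ± 155 CPM (-0.54, SE 0.29, adjusted p = 0.513). Bcl2, a survival protein reported to bind Gimap3 and Gimap5 in mouse lymphocytes, was read at 77.5, 90.0 and 90.98 CPM in the wild-type and at 29.9, 73.5 and 9.74 CPM in the knockout libraries. These values did not overlap, with an adjusted p = 0.485 and a log2 fold change of -1.19 (SE 0.61).

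Bcl2l1, which encodes the survival protein Bcl-xL, had a log2 fold change of 0.47 (SE 0.40). The death effectors Bax and Bak1 had log2 fold changes of 0.04 (SE 0.23) and 0.82 (SE 1.33), and Bcl2l11, the death activator Bim, -2.56 (SE 1.05, adjusted p = 0.388). Gabarapl2, the autophagy partner of Gimap6, averaged 59.1 ± 15.2 and 85.7 ± 20.5 CPM (0.54, SE 0.30, adjusted p = 0.529). The kinase gene Gsk3b and the catenin gene Ctnnb1, part of the pathway that Gimap5 touches in mouse T cells, had log2 fold changes of 0.22 (SE 0.45) and -0.01 (SE 0.20).

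Because GIMAP transcripts are abundant in lymphocytes and present in endothelial cells, markers of those cells were read in the same libraries. The 13 T-cell markers summed to 93.5 to 210.2 CPM in the wild-type and 95.6 to 111 CPM in the knockout libraries, with 2 of 8 tested members fitted higher. In wild-type replicates 1 to 3, 1, 3 and 5 of the 13 markers were at 0 counts, and in knockout replicates 4 to 6, 9, 7 and 7 were. Those at 0 in all 3 knockout libraries were Zap70, Cd4, Cd8a, Bcl11b and Tcf7, of which Zap70 and Cd8a were also at 0 in wild-type replicates 2 and 3 and Cd4 in wild-type replicate 3. Most of the T-cell sum was Lck, which overlapped between the groups (28.7 to 46.6 CPM in the knockout libraries), and Lat, which was higher without overlap (37.4 to 60.3 CPM in the wild-type and 60.8 to 65.4 CPM in the knockout libraries). Cd2 was also fitted higher (2.16, SE 2.48), with 71, 42 and 0 counts in the knockout libraries. The 2 T-cell markers with the smallest p, Tcf7 (-11.41, SE 1.54) and Bcl11b (-9.13, SE 2.34), were lower without overlap. Both were at 0 counts in all 3 knockout libraries, so the counts do not determine the size of these fold changes or their SE. Neither passed (adjusted p = 0.0762 and 0.225). In the wild-type libraries Tcf7 was read at 15.2, 10.9 and 5.11 CPM and Bcl11b at 0.823, 4.18 and 1.42 CPM. Cd3d, which was not tested, was also lower without overlap once scaled, but was near the floor. It held 5, 6 and 11 counts in the wild-type and 0, 5 and 4 counts in the knockout libraries. The 6 listed markers of NK and innate lymphoid cells, of 7, summed to 292 to 552 CPM in the wild-type and 156 to 268 CPM in the knockout libraries, with 1 of 2 tested members fitted higher. Most of that sum was Nkg7, while Gzma was at 0 in the knockout libraries. The 8 listed B-lineage markers, of 9, summed to 113 to 283 CPM and 72.7 to 150.4 CPM, with 1 of 7 tested members fitted higher and Ebf1 at 0 in the knockout libraries. The part of these lymphocyte markers in the GIMAP levels was not tested. Monocyte and macrophage markers summed to 767 to 1043 and 789.7 to 905 CPM (F13a1 and Ccr2 passed as lower), with 1 of 6 tested members fitted higher and a median log2 fold change of -5.18. Most of that sum was Lyz2, a lysozyme gene, which was higher without overlap in the knockout libraries (505 ± 154 and 779.7 ± 86.7 CPM, SD, n = 3 each), while Csf1r (-7.72, SE 1.26) and Cd68 (-1.81, SE 0.61) were lower without overlap. The log2 fold changes of the 2 markers with the smallest p were -1.13 (SE 0.33) for Nkg7 and 0.38 (SE 1.50) for Klrb1c among the NK markers. They were -8.26 (SE 1.39) for Ms4a1 and -2.33 (SE 0.54) for Blnk in the B lineage, and 1.26 (SE 0.66) for Gp9 and -0.33 (SE 0.47) for Ppbp among the megakaryocyte markers. None of these 6 passed.

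Of the 9 endothelial markers, 7 were listed and 5 tested, 3 of them fitted higher, and their sum was 225 to 295 CPM in the wild-type and 348 to 517 CPM in the knockout libraries. That sum was largely Egfl7 and Tie1, of which only Tie1 separated the groups. Tie1, a receptor that stem cells also express, was read at 43.9, 106 and 64.7 CPM in the wild-type libraries. In the knockout libraries it was at 133, 317 and 205 CPM (log2 fold change 1.61, SE 0.41, adjusted p = 0.180). Egfl7 was at 233, 146 and 113 CPM and at 161, 119 and 151 CPM (-0.19, SE 0.30). Robo4, a guidance receptor found in both cell types, had a log2 fold change of 1.00 (SE 0.46). Kdr, an endothelial growth factor receptor, was higher without overlap, at 0.206, 2.26 and 2.40 CPM in the wild-type and at 2.87, 6.76 and 8.77 CPM in the knockout libraries (1.92, SE 1.18, adjusted p = 0.573). Plvap, which marks fenestrated endothelium, was read at 3.67, 8.52 and 6.43 CPM in the wild-type and at 0, 2.90 and 3.52 CPM in the knockout libraries, lower without overlap (-1.54, SE 1.58). The part of the endothelial list, of the stem-cell markers and of the progenitor markers in the GIMAP levels was not tested.

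Gimap4 and Gimap3 were highest in wild-type replicate 2 and in knockout replicate 5, and so were the 6 markers of megakaryocytes and platelets as a sum, a pattern noticed after the values were seen. That sum was 171, 1240.1 and 328 CPM in the wild-type libraries and 256, 1449 and 415 CPM in the knockout libraries. Vwf, which encodes von Willebrand factor, was read at 3.05, 92.2 and 13.1 CPM in the wild-type and at 2.40, 196 and 22.1 CPM in the knockout libraries. Vwf was thus highest in the same 2 libraries, and so were Pf4, Gp1bb, Gp9 and Itga2b. Itga2b and Pf4 made up most of the sum. Ppbp was instead highest in wild-type replicate 1 (17.3, 14.2 and 11.4 CPM) and in knockout replicate 6 (9.41, 10.7 and 14.1 CPM). Below the top library of each group, the orders of Gimap4 and Vwf differed in the wild-type libraries, and those of Gimap3 and Vwf in the knockout libraries. The part of these markers in the levels of Gimap4 and Gimap3 was not tested.

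**Figure D5:**
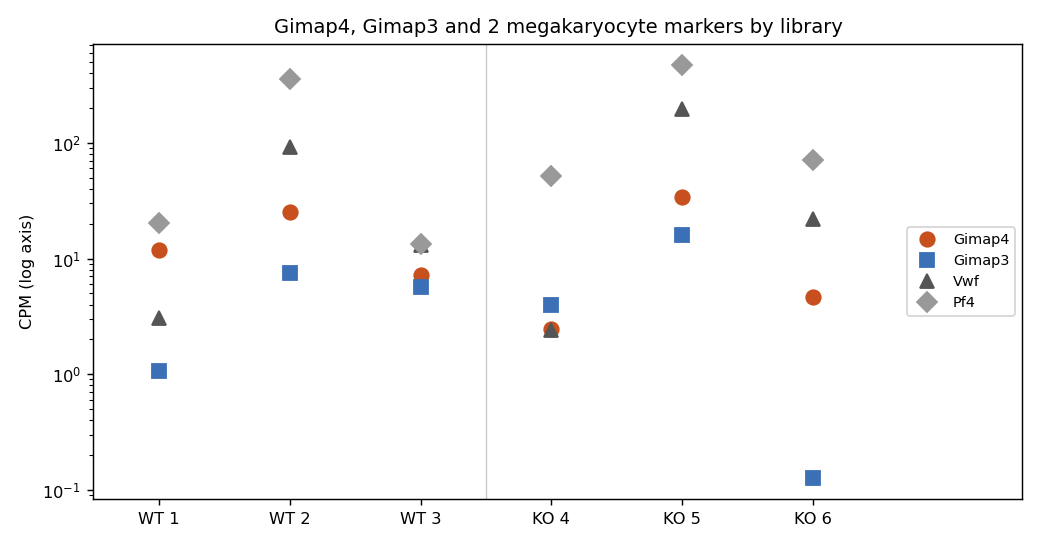
Level in CPM (log axis) of Gimap4 (circles), Gimap3 (squares) and the megakaryocyte markers Vwf (triangles) and Pf4 (diamonds) in each library, with wild-type (WT) libraries left and knockout (KO) libraries right of the line. Wild-type replicate 2 and knockout replicate 5 hold the highest values of all 4 genes within their group. The marker Ppbp, not shown, was highest in wild-type replicate 1 and knockout replicate 6.

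The genes most like the summed family level were ranked by Pearson correlation of log2 CPM over the 6 libraries among 10357 genes. They were Akr1c12, an aldo-keto reductase gene (r = 0.99), Crtap, a gene of collagen modification (0.988), Rab29, a small GTPase gene (0.986), Lrrc36 (0.984) and Rbm42, an RNA-binding protein gene (0.981). All 5 were higher without overlap in the knockout libraries, so these correlations share the group difference with the family and are given as a description.

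The authors' deposited table lists log2 fold changes of 0.30 for Gimap1, 0.59 for Gimap5, 0.49 for Gimap6 and 0.19 for Gimap8, with an adjusted p of 1 for every member. Of the 8 members 6 are higher in the authors' deposited table, the same number as in the fit here, but Gimap3 (-0.52) and Gimap4 (0.29) have the opposite sign. The same deposited table gives absolute log2 fold changes above 1 for 74 of the 109 genes that had 0 counts in all 6 libraries. These 6 count columns alone give no difference for such genes.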

How the data were processed

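RNA from 6 libraries was sequenced after SMART-Seq v4 cDNA synthesis and Nextera XT library preparation, per the labels' protocols. The submitters' processing notes name build mm10 and, as tools, STAR 2.5, edgeR 3.28.1, Trimmomatic 0.40, FastQC and MultiQC 0.11.5. The sources used here do not give the strand setting, the treatment of multi-mapping reads or the rule for listing genes. The authors deposited raw counts per gene, which were used for every test, and log2 FPKM values, which were not used. The authors also deposited a signed fold change (a score), a log2 fold change, a p-value and an adjusted p-value per gene, quoted as theirs.

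Genes were kept by filterByExpr (minimum count 10), which left 12603 of 13935, and scaled by TMM. The groups were compared in R 4.3.3 with edgeR 4.0.16 (robust quasi-likelihood test, two-sided, Benjamini-Hochberg, threshold 0.05), and the script was tested on simulated data. The standard error is the log2 fold change divided by the square root of F. Log2 CPM used a prior count of 2. The alternatives were DESeq2 1.42.0, limma 3.58.1 (voom), other edgeR tests, scalings and filters, refits without 1 library or without the 20 genes of highest count. Members and lists were chosen with earlier results of these data known. All members and GIMAP partners are named. The erythroid markers are not reported here. Of the markers, called genes or else the 2 with the smallest p per list qualified, and of the neighbours also the nearest on each side. Further genes were named after their values were seen, among them Slamf1, Zap70, Cd4, Cd8a, Cd2, Cd3d, Cd3e, Cd3g, Il7r, Lef1, Lck and Lat. Others so named were Gzma, Ebf1, Csf1r, Cd68, Lyz2, Kdr, Plvap, Egfl7, Pf4, Gp1bb and Itga2b. The promoter sequences and exon overlaps came from RefSeq (GRCm38.p6) and GENCODE M21, both of the same build as mm10.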

Additional observations from a re-analysis of the deposited data

How the results depend on the processing

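Gimap1, Gimap5, Gimap6 and Gimap8 kept a positive and Gimap7 a negative log2 fold change under all 18 alternatives. The other 3 members changed sign in 7 fits. Gimap3 was at -0.57 with limma-voom and between -1.21 and 1.08 with a library left out (negative without replicate 5). Gimap4 was between -2.07 and 0.52 with a library left out (positive without replicates 2, 4 and 6). Gimap9 was at -0.03 with quality-weighted limma-voom and between -0.06 and 0.47 with a library left out (negative without replicate 6). The other scalings turned no member. The median over members lay between 0.44 and 0.90. The number of members called was 3 with DESeq2, 2 with the likelihood ratio test and 1 with the exact test, and 0 under the rest. Over the whole table, against 18 genes, 28 passed with no filter, 581 with DESeq2, 0 with limma-voom (1775 at an unadjusted p below 0.05), 4 with quality weights, 434 with the likelihood ratio test and 405 with the exact test. Leaving out a library gave 0 to 49 genes: 0 without replicates 1, 2, 3 or 4 (1179, 1353, 1079 and 1465 at an unadjusted p below 0.05), 4 without 5 and 49 without 6. The cause was not tested. No paired analysis was possible because the groups share no replicate numbers. Gimap3 and Gimap7, at 3 to 4 counts in knockout replicate 6, were near the floor there, so their levels in it are imprecise. The total counts of that library (33537679) lay within the range of the others.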
